A study of Mus musculus with 6 samples.

Results

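The 42 genes described here are interferon-stimulated genes and RNA sensors of mouse pancreatic islets, chosen by gene symbol from a list that was drawn up with earlier results of these data known. The rule itself uses names only and no measured value. All 42 were found among the 46983 genes of the count table, and all 42 passed the filter on low counts and were tested. Polyadenylated RNA was sequenced from isolated wild-type islets, the endocrine cell clusters of the pancreas in which beta cells secrete insulin. Both groups were kept in CMRL medium for 24 h, 3 libraries at a non-stimulating glucose level (low 1, low 2 and low 3) and 3 at a stimulating level (high 1, high 2 and high 3). Glucose concentration, mouse strain and age, and how many animals a library holds, stand in no source used here. The series as a whole addresses redox signaling in the adaptation of beta cells to glucose.

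Type I interferons signal through the receptor subunits IFNAR1 and IFNAR2 and the kinases JAK1 and TYK2, which activate STAT proteins. STAT2 and IRF9 are part of the complex that then binds the interferon-stimulated response element, a short sequence near the start of many target genes. The targets include the RNA sensors RIG-I and MDA5, whose own signal through MAVS induces interferon, and enzymes that degrade, modify or trap viral RNA and protein. Beta cells carry this machinery, and an interferon signature in islets is well known from type 1 diabetes.

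Library totals ranged from 10596020 to 15846235 counts. Levels are given as CPM, the counts of a gene per 1e+06 counts of the library. The 25 acinar-cell markers, genes of the digestive-enzyme tissue that surrounds islets, held 48.5%, 64.3% and 62.0% of all counts in low 1 to 3 and 12.6%, 25.0% and 24.1% in high 1 to 3. Of these, 21 fell and none rose at high glucose, where 14.2% of all tested genes fell and 13.3% rose. The 10 beta-cell markers together stood at 33800, 25900 and 30900 CPM against 39700, 17700 and 21200 CPM, so the labelled cell type was present in both groups. Of them 5 fell and none rose. With library totals 3 of the beta-cell markers fell and 1 rose, where 629 of all 13996 tested genes fell and 8349 rose. Of 12 duct markers 5 rose and 1 fell. Intestinal epithelium markers, at 5690, 4500 and 1740 CPM in sum against 239, 176 and 149 CPM, fell in 11 of 12 tested cases and rose in 1, and 4 of 11 fibroblast, stellate and pericyte markers fell. The CPM values use TMM-scaled library sizes and are not shares of the library total. This scaling adjusts the library sizes and does not correct the level of a gene for a change in the mix of cell types. In bulk RNA, fewer cells of a type and less RNA per cell cannot be told apart, and the part of these marker changes in the results was not tested.

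At high glucose 31 of the 42 genes rose, none fell and 11 did not pass the test (edgeR quasi-likelihood F-test, Benjamini-Hochberg adjusted p under 0.05 over all 13996 tested genes). The background was 13.3% of all tested genes called higher and 14.2% called lower. Among the 11 not called, 2 had an unadjusted p under 0.05, Trim25 and Gbp2. At least 2-fold increases that passed the test were found for 27 members, against 7.55% of all tested genes, and 10 members rose at least 4-fold, against 2.6% of all tested genes. The median log2 fold change was 1.43 over the members and 0.01 over all tested genes. For 32 members every high glucose library lay above every low glucose library, a pattern that 23.5% of all tested genes had, and for none did the groups separate downward.

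The summed level of the 42 genes was 733, 638 and 728 CPM in low 1 to 3 and 1640, 1610 and 2510 CPM in high 1 to 3. Expressed as a share of all counts, the sums were 0.0688%, 0.0362% and 0.0396% against 0.293%, 0.221% and 0.352%. On either scale the 2 groups did not overlap, and high 3 held the highest value. The choice of scaling moved the whole table: with library totals, 8349 genes rose and 629 fell, against 1861 and 1987 with TMM, and the median of all genes shifted to 1.16. Relative to that shifted median the members still stood higher, with a median of 2.59 and 40 of 42 called (all but Oas3 and Mx1), where 59.7% of all genes were called higher. Scaled to 20 hormone and granule genes, 30 of 42 members rose against 7.53% of all genes, with medians of 1.68 and 0.29. These 20 genes were not constant themselves. With TMM 4 of them rose and 2 fell, where 13.3% of all tested genes rose and 14.2% fell. Their sum was 52900, 41200 and 46400 CPM in low 1 to 3 and 61200, 30000 and 33800 CPM in high 1 to 3. The log2 fold change was positive for all 42 members under each of the 5 scalings.

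**Figure D1:**
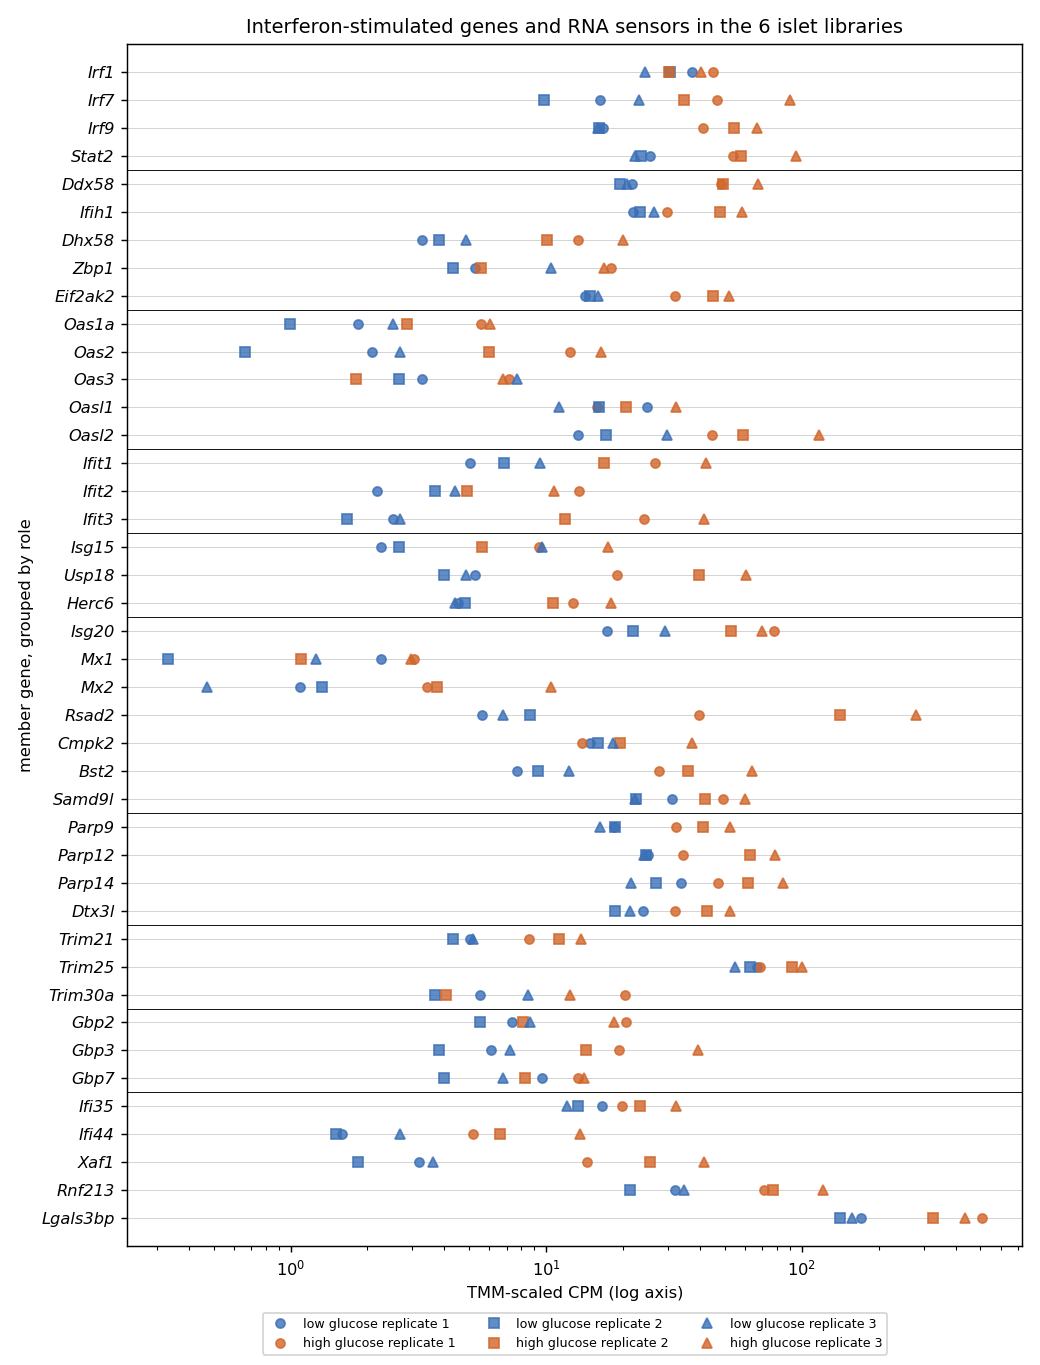
TMM-scaled CPM (log axis) of each of the 42 genes in the 6 libraries, grouped by role and separated by lines; blue marks are the low glucose libraries, orange marks the high glucose libraries, and the shape gives the replicate number. For 32 genes all 3 orange marks lie to the right of all 3 blue marks, and the widest separation is that of Rsad2.

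The sequence upstream of the start is shown for 8 members that rose, so that the common letters can be seen beside their changes. They are the 6 with the smallest p whose response element match lies wholly before the start, and the 2 with the smallest p and no match, among stretches with at most 30 bases in an exon of the gene itself. Ddx58, Eif2ak2 and Trim21, whose matches lie after the start, and Irf9, by the exon limit, were passed over. The letters searched were GAAA, any 2 bases and GAAA again, on either strand, the core of the interferon-stimulated response element. Read on the other strand it is TTTC, any 2 bases and TTTC. Each line gives the 250 bases before the RefSeq start (build GRCm38.p6), 5′ to 3′ on the gene's own strand, with matched bases in capitals. The stretches lie at chr19:34583279-34583528 (plus strand) for Ifit3, chr10:128270248-128270497 (plus) for Stat2, chr12:26456453-26456702 (minus) for Rsad2 and chr8:71537473-71537722 (minus) for Bst2. Those of Ifit1, Gbp3, Xaf1 and Isg20 lie at chr19:34640639-34640888 (plus), chr3:142559794-142560043 (plus), chr11:72301379-72301628 (plus) and chr7:78913174-78913423 (plus).
Ifit3: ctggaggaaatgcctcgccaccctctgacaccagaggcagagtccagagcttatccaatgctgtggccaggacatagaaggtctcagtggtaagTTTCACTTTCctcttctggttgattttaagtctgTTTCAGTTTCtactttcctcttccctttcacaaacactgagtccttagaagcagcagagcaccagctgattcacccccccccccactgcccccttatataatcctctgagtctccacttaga
Stat2: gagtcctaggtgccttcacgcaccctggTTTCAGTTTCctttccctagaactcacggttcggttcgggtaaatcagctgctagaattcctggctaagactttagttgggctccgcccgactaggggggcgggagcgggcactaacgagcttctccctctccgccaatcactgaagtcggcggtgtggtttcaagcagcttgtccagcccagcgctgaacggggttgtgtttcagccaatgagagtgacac
Rsad2: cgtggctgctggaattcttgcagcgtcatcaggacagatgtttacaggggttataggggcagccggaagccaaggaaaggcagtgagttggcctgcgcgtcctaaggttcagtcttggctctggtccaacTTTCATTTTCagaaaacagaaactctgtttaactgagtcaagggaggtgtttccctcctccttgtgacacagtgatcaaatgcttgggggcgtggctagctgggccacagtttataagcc
Bst2: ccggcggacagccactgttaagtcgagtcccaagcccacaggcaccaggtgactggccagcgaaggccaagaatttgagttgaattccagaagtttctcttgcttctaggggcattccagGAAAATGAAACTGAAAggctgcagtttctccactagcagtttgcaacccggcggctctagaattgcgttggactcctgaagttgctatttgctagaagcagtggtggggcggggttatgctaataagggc
Ifit1: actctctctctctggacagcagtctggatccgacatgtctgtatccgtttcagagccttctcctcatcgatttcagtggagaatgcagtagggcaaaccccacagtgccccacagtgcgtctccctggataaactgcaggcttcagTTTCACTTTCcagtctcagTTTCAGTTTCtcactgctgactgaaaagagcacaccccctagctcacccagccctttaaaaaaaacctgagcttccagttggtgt
Gbp3: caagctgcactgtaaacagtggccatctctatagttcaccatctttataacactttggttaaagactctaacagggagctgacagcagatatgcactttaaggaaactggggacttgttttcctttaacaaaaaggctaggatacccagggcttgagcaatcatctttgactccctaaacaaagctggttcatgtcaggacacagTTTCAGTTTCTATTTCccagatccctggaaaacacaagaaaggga
Xaf1: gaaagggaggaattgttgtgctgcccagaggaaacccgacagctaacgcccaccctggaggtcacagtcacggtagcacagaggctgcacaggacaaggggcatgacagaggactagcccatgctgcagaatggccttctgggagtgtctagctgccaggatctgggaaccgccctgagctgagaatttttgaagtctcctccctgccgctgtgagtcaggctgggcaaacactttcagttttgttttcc
Isg20: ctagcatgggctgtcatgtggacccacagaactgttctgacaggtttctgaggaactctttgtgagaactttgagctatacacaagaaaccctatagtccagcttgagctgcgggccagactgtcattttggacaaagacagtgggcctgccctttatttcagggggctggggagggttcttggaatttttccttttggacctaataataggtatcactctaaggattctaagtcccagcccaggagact

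RefSeq promoter windows of 300 bases, 250 before and 50 after the start, were matched for 34 of the 42 genes. At least 1 such match was found in 16 of the 34 genes (47.1%), and 7 of these had 2 or more. Among all genes with a window 1079 of 27025 (3.99%) had one, and among the genes tested for expression 404 of 10799 (3.74%). Ifit3 held 2 matches, whose first bases lay at -156 and -122 from the start, and Ifit1 held 2 at -104 and -85. In Bst2 and Gbp3 a pair of matches overlapped, at -130 and -124 and at -45 and -39. Stat2 had 1 match at -222 and Rsad2 1 at -120. Of members that rose, 11 of 25 with a window had a match (44%), and of members not called 5 of 9 (55.6%). The 5 were Oas3, Isg15, Trim30a, Gbp2 and Gbp7. The letters TTCNNNGAA, the core of the element bound by STAT dimers, were found in 8 of 34 members (23.5%) and in 9.55% of all genes with a window. A match describes letters in a window and not a bound site, and the windows of Dhx58, Zbp1, Oas2, Usp18, Mx1, Mx2, Parp9 and Parp14 were not analysed here.

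**Figure D2:**
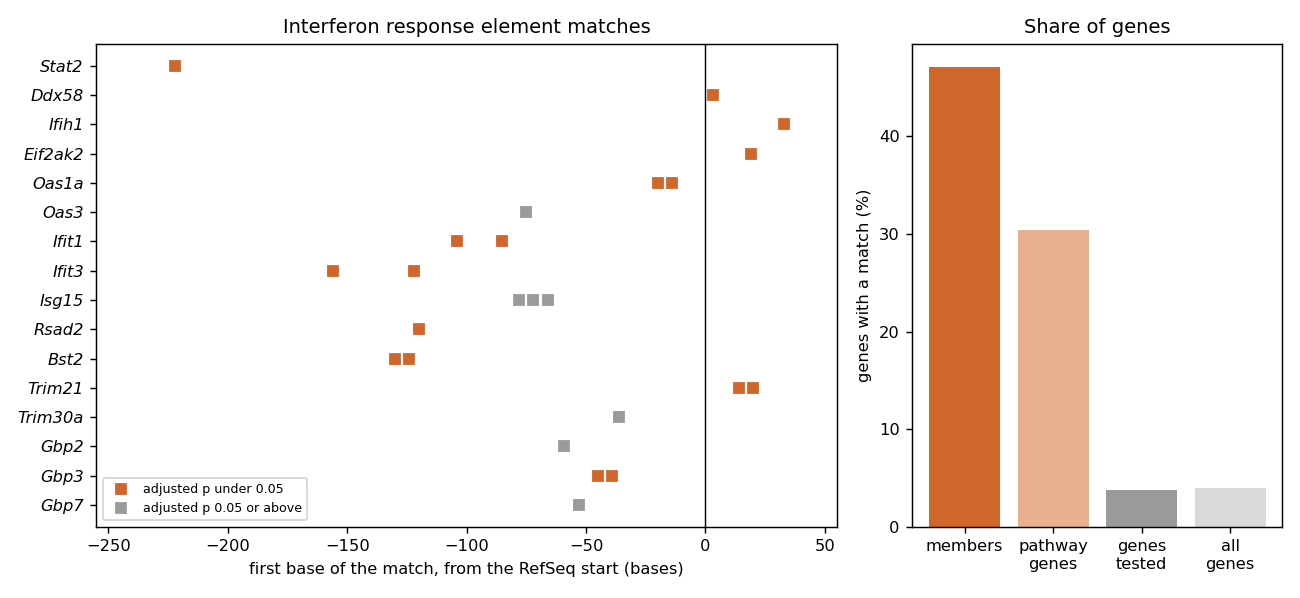
Left, position of the first base of each match to the response element letters, in bases from the RefSeq start (vertical line), for the 16 genes with a match (first window of each gene), orange for genes that rose and grey for genes not called. Right, percent of genes with at least 1 match among members (47.1%), other pathway genes (30.4%), genes tested for expression (3.74%) and all genes with a window (3.99%).

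Transcription factors of the response rose in 3 of 4 cases. Irf9, the DNA-binding subunit of the complex that acts at the response element, was at 16.7, 16.1 and 16 CPM in low 1 to 3 and at 40.9, 54.1 and 67.1 CPM in high 1 to 3. Its low glucose libraries were nearly equal, and every high glucose library was above them, a log2 fold change of 1.73 ± 0.20 (SE; edgeR adjusted p = 0.00168). Stat2, the subunit that carries the activation domain, was at 25.4, 23.6 and 22.3 CPM against 53.9, 58.1 and 95.3 CPM. The groups of Stat2 did not overlap and high 3 was highest (1.54 ± 0.24, edgeR adjusted p = 0.00443). Irf7, which amplifies interferon production, was at 16.2, 9.81 and 23.0 CPM against 46.8, 34.7 and 89.6 CPM. Its increase of 1.80 ± 0.42 had an edgeR adjusted p of 0.0189, which became 0.0675 without low 1 (log2 fold change 1.80) and 0.0705 without low 2 (1.56). Irf1, a factor that responds to interferon gamma and to inflammatory cytokines, was at 37.1, 30.4 and 24.4 CPM against 44.8, 30.2 and 40.2 CPM. The groups of Irf1 overlapped and it did not pass the test (0.32 ± 0.21, edgeR adjusted p = 0.293).

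Sensors of nucleic acid rose in 4 of 5 cases. Ddx58, which encodes the RNA helicase RIG-I, was at 21.7, 19.4 and 20.8 CPM in the low glucose libraries and at 48.2, 49.2 and 67.2 CPM in the high glucose libraries. The low glucose group of Ddx58 was narrow, high 3 stood above high 1 and high 2, and the groups did not overlap (log2 fold change 1.41 ± 0.17, edgeR adjusted p = 0.00197). Dhx58, which encodes the related helicase LGP2, was at 3.26, 3.82 and 4.87 CPM against 13.3, 10.1 and 20 CPM (1.87 ± 0.32, edgeR adjusted p = 0.00583). Eif2ak2, which encodes the kinase PKR that halts translation on binding double-stranded RNA, was at 14.2, 14.8 and 15.9 CPM against 31.8, 45.0 and 51.7 CPM (1.52 ± 0.21, edgeR adjusted p = 0.00274). Neither gene had overlapping groups. Ifih1, which encodes the sensor MDA5, was at 21.9, 23.3 and 26.4 CPM against 29.6, 47.9 and 58.4 CPM. High 1 lay close to the low glucose libraries for Ifih1, and its change was the smallest of the called sensors (0.93 ± 0.25, edgeR adjusted p = 0.0320). The call of Ifih1 was lost without low 1 (0.86), low 2 (0.92), low 3 (1.02), high 2 (0.89) or high 3 (0.71), with edgeR adjusted p from 0.0603 to 0.107. It was lost as well with the hormone and granule scaling (adjusted p = 0.0762), with limma-voom (0.0522) and in edgeR's test against a fold of 1.2 (0.0515). Zbp1, a sensor of Z-form nucleic acid that triggers cell death, was at 5.27, 4.32 and 10.4 CPM against 18.0, 5.54 and 16.9 CPM. High 2 lay among the low glucose libraries and Zbp1 did not pass (1.03 ± 0.50, edgeR adjusted p = 0.165), but it did with the replicate number as a block (0.99, edgeR adjusted p = 0.0448) and without high 2 (1.41, edgeR adjusted p = 0.0400).

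Oligoadenylate synthetases make the short adenylate chains that switch on the RNA-degrading enzyme RNase L, and 3 of the 5 family members rose. Oas2 was at 2.09, 0.665 and 2.67 CPM against 12.4, 5.99 and 16.4 CPM, with no overlap (log2 fold change 2.65 ± 0.53, edgeR adjusted p = 0.0110). Oasl2, an oligoadenylate synthetase-like gene, was at 13.3, 17.1 and 29.6 CPM against 44.4, 58.7 and 117 CPM. Its increase was 1.89 ± 0.43 (edgeR adjusted p = 0.0177), and it missed the threshold without low 1 (1.65, adjusted p = 0.0636) or low 2 (1.80, adjusted p = 0.0782). Oas1a was at 1.84, 0.997 and 2.52 CPM against 5.55, 2.85 and 6.05 CPM, close together where high 2 and low 3 meet (1.42 ± 0.44, edgeR adjusted p = 0.0487). This call held in edgeR without high 2 but not without low 1 (1.45), low 2 (1.18), low 3 (1.73), high 1 (1.30) or high 3 (1.24), where adjusted p ran from 0.0606 to 0.154. It was lost with limma-voom (adjusted p = 0.0866) and against a fold of 1.2 (0.0651). Of the 50-base stretches of Oas1a transcripts 57.6% also occur in its neighbour Oas1g, so the counts of Oas1a are uncertain.

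Oas3, a neighbour of Oas2 on chromosome 5, was at 3.26, 2.66 and 7.71 CPM against 7.15, 1.80 and 6.75 CPM. Its groups overlapped and it did not pass the test (log2 fold change 0.22 ± 0.60, edgeR adjusted p = 0.812). Oas3 was also the one member whose estimate went to 0 or below with a library left out, at -0.07 without high 1, -0.02 without low 2 and 0 without high 3. Oasl1 lies beside Oasl2 and was at 24.8, 16.1 and 11.2 CPM against 15.8, 20.5 and 32.3 CPM (0.39 ± 0.36, edgeR adjusted p = 0.453). The ratio of Oas2 to Oas3 counts, which needs no scaling between libraries, was 0.641, 0.250 and 0.347 in low 1 to 3 and 1.73, 3.33 and 2.43 in high 1 to 3. Counts of Oas2 were thus below those of Oas3 in every low glucose library and above them in every high glucose library. At low glucose these were few, 25, 4 and 17 counts of Oas2 and 39, 16 and 49 of Oas3. This pair, too, sets a called gene against one not called and was chosen after the values were seen.

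All 3 Ifit genes, which encode a family of antiviral proteins, rose. Ifit3, at chr19:34583531-34588731, was at 2.51, 1.66 and 2.67 CPM against 24.1, 11.9 and 41.4 CPM. No high glucose library came near the low glucose ones, and the means differed 11.3-fold (log2 fold change 3.48 ± 0.49, edgeR adjusted p = 0.00318). Ifit1, at chr19:34640871-34650009, was at 5.02, 6.82 and 9.43 CPM against 26.7, 16.8 and 42.2 CPM (2.03 ± 0.39, edgeR adjusted p = 0.00946). Ifit2, at chr19:34550694-34576419, was at 2.18, 3.66 and 4.40 CPM against 13.5, 4.89 and 10.7 CPM, so that high 2 was barely above low 3. The change of Ifit2 was 1.54 ± 0.44 (edgeR adjusted p = 0.0381). Ifit2 missed the threshold without low 1 (1.27), low 2 (1.61), low 3 (1.79), high 1 (1.23) or high 3 (1.46), with edgeR adjusted p from 0.0553 to 0.124, with limma-voom (0.0949) and against a fold of 1.2 (0.0504). Of the 50-base stretches of Ifit3 51.2% occur in Ifit3b, so the counts of the 2 genes are uncertain. Ifit3b itself went from a mean of 0.411 to 9.00 CPM (4.33 ± 0.61, edgeR adjusted p = 0.00313).

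In the ISG15 system, in which a ubiquitin-like protein is joined to other proteins and removed again, 2 of 3 genes rose. Usp18, which removes ISG15 and also holds back signaling at the interferon receptor, was at 5.27, 3.99 and 4.87 CPM against 19.0, 39.5 and 60.5 CPM. The low glucose libraries agree closely, whereas the high glucose libraries span a wide range, and the means differed 8.42-fold (log2 fold change 3.06 ± 0.43, edgeR adjusted p = 0.00307). Herc6, the ligase that attaches ISG15 in mice, was at 4.52, 4.82 and 4.40 CPM against 12.7, 10.6 and 17.9 CPM (1.58 ± 0.25, edgeR adjusted p = 0.00482). Isg15 itself was at 2.26, 2.66 and 9.59 CPM against 9.34, 5.59 and 17.5 CPM. Low 3 lay within the high glucose range and the gene did not pass (1.19 ± 0.63, edgeR adjusted p = 0.197). Isg15 was called with the replicate block (1.32, edgeR adjusted p = 0.0145) and without low 3 (2.16, edgeR adjusted p = 0.0427). The ratio of Usp18 to Isg15 counts was 2.33, 1.5 and 0.508 in low 1 to 3 and 2.04, 7.06 and 3.45 in high 1 to 3, overlapping between the groups.

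Among antiviral effectors 5 of 7 rose, and Rsad2 had the largest change of the 42 genes. Rsad2 encodes viperin, an enzyme that makes a chain-terminating nucleotide, and lies at chr12:26442746-26456452. It was at 5.61, 8.64 and 6.76 CPM in low 1 to 3 and at 39.7, 141 and 280 CPM in high 1 to 3. Each high glucose library was far above the low glucose range, but they also differed widely among themselves, with high 3 highest. The means were 21.9-fold apart (log2 fold change 4.47 ± 0.70, edgeR adjusted p = 0.00451). Cmpk2, which encodes a mitochondrial kinase that supplies viperin's substrate, starts 12751 bases from the start of Rsad2 and is read in the opposite direction. It was at 14.9, 16 and 18.2 CPM against 13.8, 19.4 and 37.3 CPM and did not pass the test (0.52 ± 0.36, edgeR adjusted p = 0.306). In counts, Rsad2 to Cmpk2 stood at 0.376, 0.542 and 0.371 in low 1 to 3 and at 2.89, 7.27 and 7.49 in high 1 to 3, with no overlap.

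Bst2, which encodes tetherin, a membrane protein that holds budding virus at the cell surface, was at 7.70, 9.31 and 12.3 CPM against 27.6, 36.0 and 64.0 CPM (log2 fold change 2.13 ± 0.35, edgeR adjusted p = 0.00522). Isg20, an exonuclease gene, was at 17.3, 21.8 and 29.2 CPM against 77.8, 53.1 and 69.8 CPM (1.56 ± 0.24, edgeR adjusted p = 0.00397). Samd9l, a regulator of translation and growth, was at 31.0, 22.4 and 22.2 CPM against 49.0, 41.7 and 60.0 CPM (0.99 ± 0.20, edgeR adjusted p = 0.0120), and without low 2 its adjusted p was 0.0589 (0.93). None of these 3 genes had overlapping groups. The dynamin-like GTPase genes Mx1 and Mx2 lie near each other on chromosome 16 and were scarce. The gene annotation lists Mx2 as a polymorphic pseudogene and Mx1 as protein-coding. Mx2 was at 1.09, 1.33 and 0.472 CPM against 3.43, 3.74 and 10.4 CPM (2.58 ± 0.59, edgeR adjusted p = 0.0179). Its call was lost without low 1 (2.7), low 2 (2.83) or low 3 (2.3), with edgeR adjusted p from 0.0561 to 0.0606, and with limma-voom (0.0714). Mx1, with 2 to 86 counts in a library, was at 2.26, 0.332 and 1.26 CPM against 3.04, 1.10 and 2.97 CPM. High 2 of Mx1 lay below low 1 and low 3, and the difference could not be told from the spread at this depth (0.80 ± 0.64, edgeR adjusted p = 0.382).

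The 4 genes of the PARP and DTX3L group rose by similar amounts. PARP9 and the ubiquitin ligase DTX3L act as a pair, and PARP12 and PARP14 attach ADP-ribose to proteins. Parp9 was at 18.5, 18.6 and 16.2 CPM against 32.1, 41.2 and 52.6 CPM (log2 fold change 1.24 ± 0.21, edgeR adjusted p = 0.00555). Dtx3l was at 23.9, 18.6 and 21.2 CPM against 31.9, 42.6 and 52.4 CPM (0.99 ± 0.21, edgeR adjusted p = 0.0140). The 2 genes overlap head to head on chromosome 16 by 458 exon bases on opposite strands, 9.40% of the Parp9 exon length, and reads there cannot be told apart without a stated strand setting. Parp12 was at 25.1, 24.6 and 24.2 CPM against 34.3, 62.5 and 78.7 CPM (1.24 ± 0.29, edgeR adjusted p = 0.0182). Parp14 was at 33.7, 26.8 and 21.4 CPM against 47.0, 61.6 and 84.4 CPM (1.23 ± 0.26, edgeR adjusted p = 0.0131). In all 4 genes the order of the high glucose libraries was the same, high 1 lowest and high 3 highest. Dtx3l missed the threshold without low 2 (0.91, edgeR adjusted p = 0.0613) or high 3 (0.82, 0.0521), and Parp14 without low 2 (1.23, 0.0585). Parp12 missed it without low 1 (1.26, edgeR adjusted p = 0.0570), low 2 (1.25, 0.0693), low 3 (1.25, 0.0548) or high 3 (0.98, 0.0562).

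Of the 3 TRIM ubiquitin ligases 1 rose. Trim21, the cytosolic antibody receptor, was at 5.02, 4.32 and 5.19 CPM against 8.56, 11.2 and 13.7 CPM (log2 fold change 1.2 ± 0.24, edgeR adjusted p = 0.0118). Without low 2 (1.14) or high 3 (1.03) its edgeR adjusted p was 0.0542 and 0.0543. Trim25, which ubiquitinates RIG-I, was at 66.7, 62.8 and 54.7 CPM against 68.8, 91.8 and 100 CPM. Its groups just separated, but the test was not passed (0.50 ± 0.18, edgeR adjusted p = 0.0791). Trim25 was called in 3 alternatives, with library totals (1.6, edgeR adjusted p = 0.00284), without high 1 (0.64, 0.0141) and with TMM computed without the 20 most abundant genes (0.60, 0.0484). With library totals the median gene was at 1.16 and 59.7% of all tested genes were called higher. Trim30a, which restrains inflammatory signaling, was at 5.52, 3.66 and 8.49 CPM against 20.4, 4.04 and 12.4 CPM (1.07 ± 0.57, edgeR adjusted p = 0.202). High 2 sat within the low glucose range, and without it the change of Trim30a was 1.49 (edgeR adjusted p = 0.0375).

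Guanylate-binding proteins are large GTPases that coat intracellular pathogens, and 1 of 3 rose. Gbp3 was at 6.11, 3.82 and 7.23 CPM against 19.3, 14.3 and 39.4 CPM (log2 fold change 2.08 ± 0.43, edgeR adjusted p = 0.0120), with an adjusted p of 0.0551 without low 2 (1.89). Gbp2 was at 7.36, 5.49 and 8.65 CPM against 20.6, 8.14 and 18.4 CPM, and Gbp7 at 9.62, 3.99 and 6.76 CPM against 13.3, 8.29 and 14 CPM. In both genes high 2 lay within the low glucose range. Gbp2 came close to the threshold (1.13 ± 0.37, edgeR adjusted p = 0.0575) and Gbp7 less so (0.78 ± 0.35, edgeR adjusted p = 0.135). With the replicate block both were called, Gbp2 at 1.08 (edgeR adjusted p = 0.0138) and Gbp7 at 0.83 (edgeR adjusted p = 0.0282). Gbp2 was called as well with library totals (2.32, edgeR adjusted p = 0.00377), where the median gene was at 1.16 and 59.7% of all genes were called higher. It was also called with DESeq2 (adjusted p = 0.0235), with no filter (0.0338) and with the hormone and granule scaling (0.0390). The same held with TMM computed without the 20 most abundant genes (0.0419) and without high 2 (1.45, edgeR adjusted p = 0.0110).

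The 5 remaining genes all rose. Xaf1, which encodes a partner of the apoptosis inhibitor XIAP, was at 3.18, 1.83 and 3.62 CPM against 14.4, 25.4 and 41.3 CPM. Its means were 9.40-fold apart, with no overlap (log2 fold change 3.21 ± 0.45, edgeR adjusted p = 0.00296). Lgals3bp, which encodes a secreted galectin-binding glycoprotein, was at 170, 141 and 157 CPM against 506, 327 and 434 CPM (1.44 ± 0.22, edgeR adjusted p = 0.00448). Rnf213, a giant ubiquitin ligase gene, was at 31.8, 21.3 and 34.6 CPM against 71.0, 76.9 and 121 CPM (1.61 ± 0.27, edgeR adjusted p = 0.00573). Groups of neither gene overlapped. Ifi44, whose product is less well understood, was at 1.59, 1.5 and 2.67 CPM against 5.16, 6.59 and 13.6 CPM (2.15 ± 0.46, edgeR adjusted p = 0.0140). Its adjusted p rose to 0.0573 without low 1 (2.01), to 0.0640 without low 2 (2.03) and to 0.0530 with limma-voom. Ifi35, the partner of the NMI protein, was at 16.6, 13.3 and 12.1 CPM against 19.8, 23.3 and 32.1 CPM (0.83 ± 0.23, edgeR adjusted p = 0.0340). The Ifi35 call was lost without low 2 (0.81), low 3 (0.75), high 2 (0.89) or high 3 (0.63), with edgeR adjusted p from 0.0639 to 0.117. It was lost too with the hormone and granule scaling (adjusted p = 0.0821), limma-voom (0.0611) and the test against a fold of 1.2 (0.0585). An opposite-strand gene, Gm11626, overlaps 16.8% of the exon length of Ifi35.

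**Figure D3:**
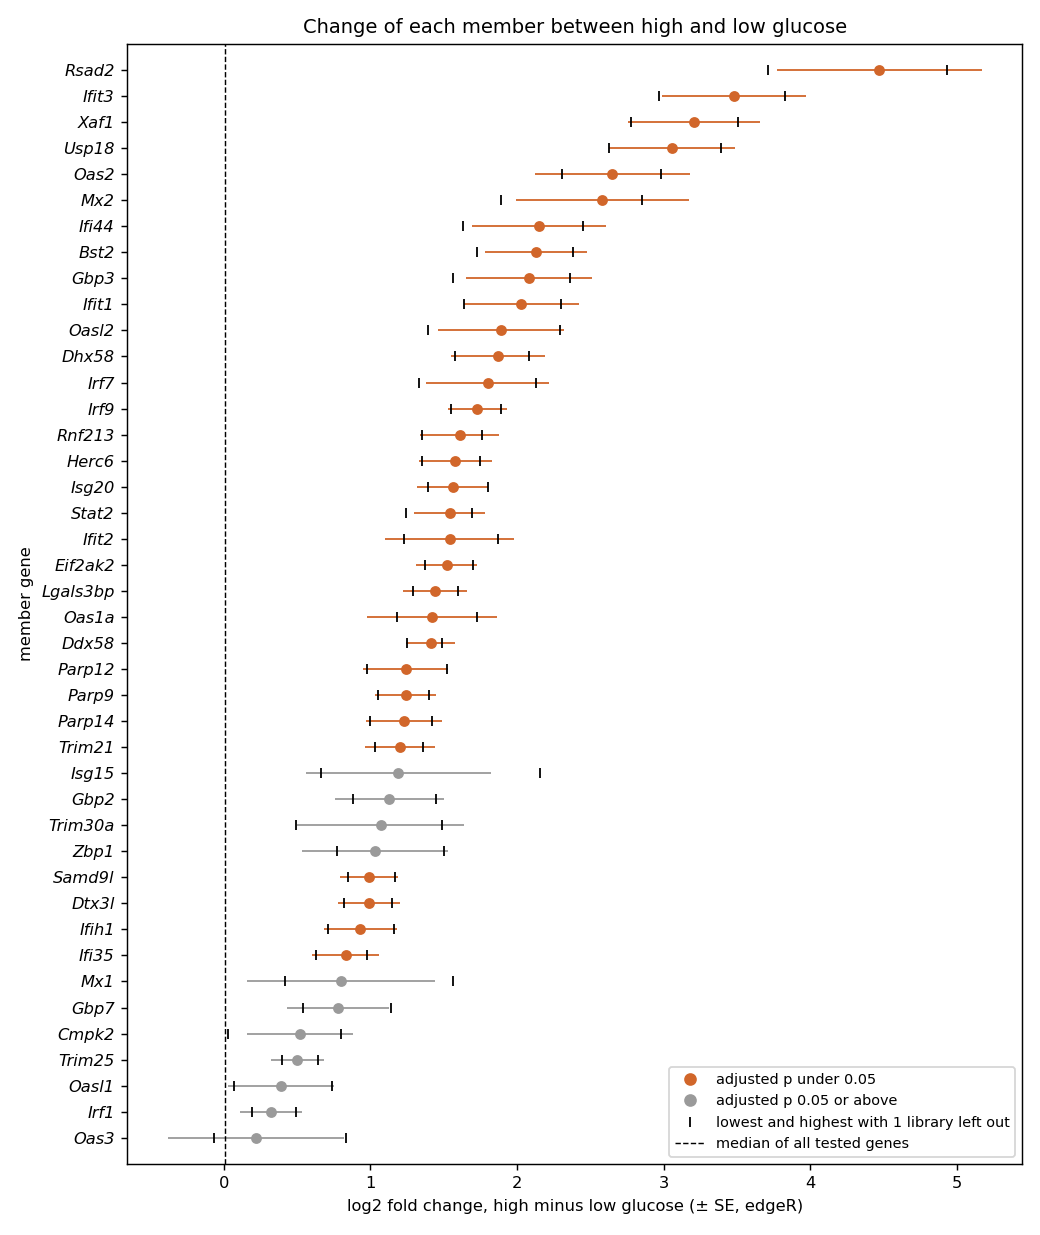
Log2 fold change of each gene, high minus low glucose (± SE, edgeR, 3 libraries per group), sorted by size, orange for an adjusted p under 0.05 and grey for one at or above it; black ticks give the lowest and highest estimate with 1 library left out, and the dashed line the median of all tested genes (0.01). Rsad2, Ifit3, Xaf1 and Usp18 lead with 4.47, 3.48, 3.21 and 3.06, and Oas3 is last with 0.22.

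Compared per length, as RPKM, which is CPM divided by the kilobases of exon, the median member stood at 2.88 at low glucose and at 7.62 at high glucose. Lgals3bp was the most abundant member in both groups, with mean levels of 54.8 and 148 RPKM. Isg20 (12.2 RPKM) and Bst2 (10.8 RPKM) came next at low glucose, and Bst2 (47.1 RPKM) and Isg20 (36.0 RPKM) at high glucose. Rsad2 moved from rank 28 of the 42 genes (1.62 RPKM) to rank 4 (35.4 RPKM), Ifit3 from rank 30 (1.31 RPKM) to rank 7 (14.8 RPKM) and Usp18 from rank 27 (1.69 RPKM) to rank 11 (14.2 RPKM). Irf1 went the other way, from rank 6 (7.70 RPKM) to rank 16 (9.65 RPKM), although its own level did not pass the test. The scarcest members were Mx2 at low glucose (0.267 RPKM) and Mx1 at high glucose (0.626 RPKM). Raw counts of the members ranged from 2 to 14297 in a library, and 5 members had fewer than 10 counts in at least 1 library.

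The high glucose libraries were not alike. High 3 held the highest value of 33 members, high 1 that of 9 and high 2 that of none. The 9 highest in high 1 were Irf1, Zbp1, Oas3, Ifit2, Isg20, Mx1, Trim30a, Gbp2 and Lgals3bp. High 1 was lowest for 22 members, 19 of them called, among them Rsad2, Usp18, Xaf1, Irf9, Stat2 and the 4 PARP and DTX3L genes. High 2 was lowest for the other 20 members, 12 of them called, the 3 Ifit genes and Gbp3 among these, and Gbp2 and Gbp7 among those not called. Without low 2 the number of members called higher was 17 in place of 31, and calls fell across the whole table, to 4.86% of all genes. Leaving out low 1, low 3, high 1, high 2 or high 3 gave 23, 26, 30, 32 and 24 members, against 7.71%, 8.76%, 19.8%, 7.66% and 5.78% of all genes. With the replicate number as a block, 35 members rose, against 15.7% of all genes. A group of 17 members rose in every one of 16 alternative analyses: Irf9, Stat2, Ddx58, Dhx58, Eif2ak2, Oas2, Ifit1, Ifit3, Usp18, Herc6, Isg20, Rsad2, Bst2, Parp9, Xaf1, Rnf213 and Lgals3bp. No member was called lower in any of them.

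Immune cells in islets can carry many of these transcripts, so markers of such cells were measured beside them. Of 44 markers of macrophages, neutrophils, T and NK cells, B cells and dendritic cells, 30 were tested and 14 were below the filter. Of the 30, 2 rose, 5 fell and 23 did not pass, where 13.3% of all tested genes rose and 14.2% fell. The share that fell was thus near that of all tested genes. The summed level of the 44 markers was 509, 342 and 500 CPM in low 1 to 3 and 401, 91.1 and 168 CPM in high 1 to 3. The sum was thus lowest in high 2 and high 3, and high 1 lay within the low glucose range. As a share of all counts they made 0.0478%, 0.0194% and 0.0272% against 0.0715%, 0.0125% and 0.0236%. The microglia and macrophage receptor gene Cx3cr1 was at 3.60, 3.82 and 3.14 CPM against 0.318, 0.150 and 0.0504 CPM (log2 fold change -4.21 ± 0.54, edgeR adjusted p = 0.00223), and C1qa, Mrc1, Aif1 and Jchain fell as well. Mrc1 was not called without low 1 (-1.91), low 3 (-1.71) or high 3 (-1.70), with edgeR adjusted p from 0.0504 to 0.0603. Jchain was not called without low 1 (-1.63), low 2 (-2.13), low 3 (-1.81), high 2 (-1.55) or high 3 (-1.60), with edgeR adjusted p from 0.0781 to 0.14, nor against a fold of 1.2 (0.0592). With library totals 2 of the 44 markers fell in place of 5, and 629 of all 13996 tested genes fell in place of 1987. Cd14, a co-receptor for bacterial lipopolysaccharide, went the opposite way, from 1.76, 2.49 and 2.67 CPM to 21.4, 37.2 and 50.8 CPM (4.01 ± 0.38, edgeR adjusted p = 0.00106). Cd68 was the other one that rose (1.46 ± 0.36, edgeR adjusted p = 0.0225), but not without low 1, low 2 or low 3 (1.58, 1.42 and 1.46, adjusted p from 0.0628 to 0.0894). Siglech marks plasmacytoid dendritic cells, the main interferon producers of blood. It had 13, 4 and 6 counts at low glucose and 1, 0 and 0 at high glucose. Of the 6 dendritic markers 2 were tested and none was called. The groups of Xcr1, Clec9a and Itgax also lay lower at high glucose, but those of Flt3 and Ccr9 overlapped. Flt3 had 30, 7 and 9 counts against 89, 5 and 8. Ly6g of neutrophils had no count in any library, whereas S100a9 had 2, 1 and 24 against 74, 10 and 45. Of the 7 neutrophil markers 2 were tested and none was called. The part of immune cells in the change of the members was not tested.

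**Figure D4:**
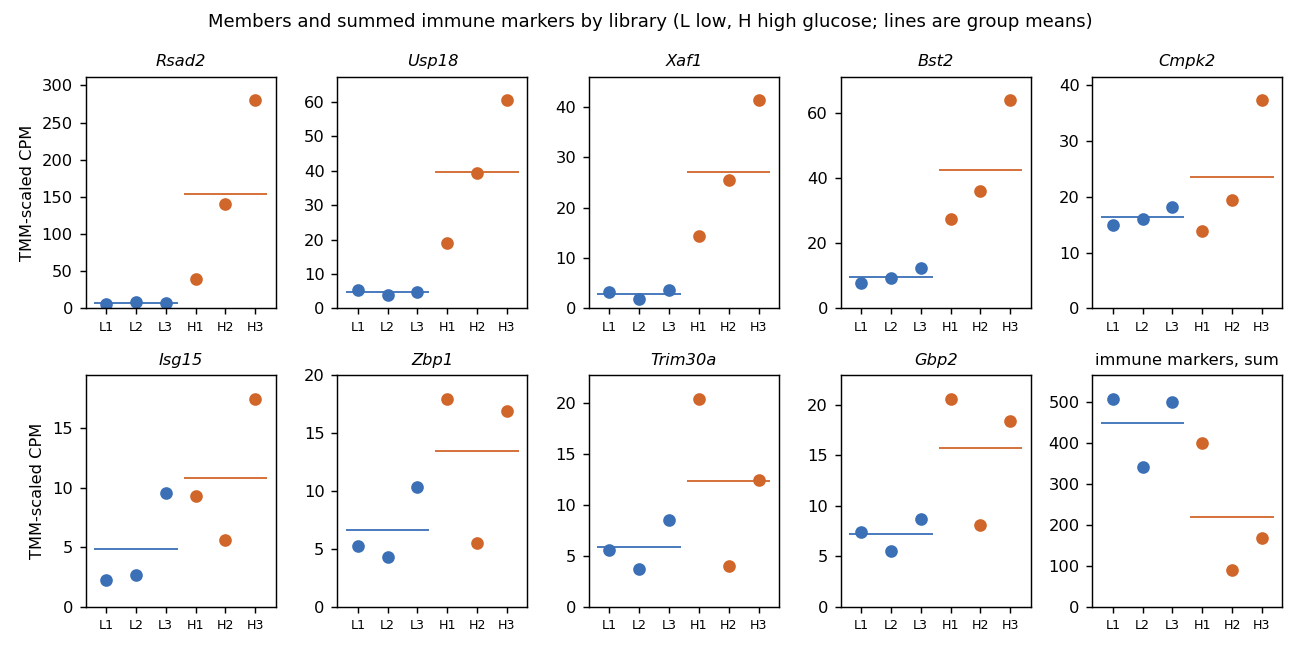
TMM-scaled CPM by library for 9 members and for the sum of 44 immune-cell markers; L1 to L3 are the low glucose and H1 to H3 the high glucose libraries, points are single libraries and lines the group means, and each panel has its own axis from 0. Rsad2, Usp18, Xaf1, Bst2 and Cmpk2 are lowest in H1 and highest in H3 within their group, Zbp1, Trim30a and Gbp2 are lowest in H2 and highest in H1, Isg15 is lowest in H2 and highest in H3, and the immune sum is lowest in H2.

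The rest of the pathway was followed in 98 further genes in 6 lists, of which 86 were tested. Of these 23 rose, 4 fell and 59 did not pass, with a median log2 fold change of 0.43. The background was 13.3% of all tested genes called higher and 14.2% called lower. With the replicate block 26 of the 86 rose and 8 fell, against 2197 and 2473 of all 13996 tested genes. The 10 interferon genes examined (Ifna1, Ifna2, Ifna4, Ifna5, Ifnb1, Ifne, Ifnk, Ifnl2, Ifnl3 and Ifng) were almost without reads. A single count of Ifng in high 1 was the only one, and the other 9 genes had 0 counts in all 6 libraries. A count of 0 allows up to 3 counts, or 0.189 to 0.283 CPM on library totals, so lower levels were not detectable at this depth. RNA was taken at a single time, 24 h.

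Among receptors and JAK-STAT genes 3 of 11 rose and none fell, with a median of 0.33. For all tested genes the shares were 13.3% higher and 14.2% lower. Stat3, which serves interleukin signaling, rose by a log2 fold change of 0.92 ± 0.23 (edgeR adjusted p = 0.0223), and its call was lost without low 1 (0.85), low 2 (0.87) or high 3 (1.00) and with the hormone and granule scaling (adjusted p = 0.0762). Ifnar1 was at 22.8, 20.3 and 17.5 CPM against 31.7, 26.6 and 34.1 CPM (0.61 ± 0.17, edgeR adjusted p = 0.0358). That call was lost without low 2 (0.62), low 3 (0.53) or high 3 (0.54), with the hormone and granule scaling (adjusted p = 0.145), with limma-voom (0.0501) and against a fold of 1.2 (0.0803). The other receptor genes did not pass: Ifnar2 had 0.33 ± 0.22 (edgeR adjusted p = 0.287), Ifngr2 0.35 ± 0.26 (0.337) and Ifngr1 -0.13 ± 0.18 (0.634). Without high 1 the change of Ifngr2 was 0.59 (edgeR adjusted p = 0.0227). With library totals, where the median gene was at 1.16, all 3 were called, Ifnar2 at 1.51 (edgeR adjusted p = 0.00787), Ifngr2 at 1.44 (0.00613) and Ifngr1 at 1.00 (0.0440).

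Of 15 adaptors and kinases downstream of the sensors 2 rose and 1 fell, with a median of 0.20. These shares were near or below those of all tested genes, 13.3% and 14.2%. Myd88, the adaptor of most Toll-like receptors, was at 12.2, 11.6 and 11.6 CPM against 23.3, 31.4 and 35.9 CPM (log2 fold change 1.35 ± 0.20, edgeR adjusted p = 0.00354). Tlr3, an endosomal receptor for double-stranded RNA, rose by 1.00 ± 0.30 (edgeR adjusted p = 0.0460), but not with the replicate block (0.95, edgeR adjusted p = 0.0625) nor without low 2 (0.90), low 3 (0.91), high 2 (0.82) or high 3 (0.93). It also missed the threshold with the hormone and granule scaling (adjusted p = 0.0584), limma-voom (0.114) and the test against a fold of 1.2 (0.0693). Mavs, the mitochondrial adaptor of RIG-I and MDA5, was at 31.2, 35.9 and 33.7 CPM against 12.6, 20.3 and 18.2 CPM. Its groups did not overlap and it fell by 0.98 ± 0.20 on the log2 scale (edgeR adjusted p = 0.0126), while Ddx58 and Ifih1 upstream of it rose. The direction of Mavs turned with library totals (0.16, edgeR adjusted p = 0.639), where the median gene was at 1.16, and the call was lost with the hormone and granule scaling (-0.62, adjusted p = 0.373) and without low 2 (-0.92, adjusted p = 0.0564).

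Of 11 negative regulators 2 rose and 1 fell, with a median of 0.36. These shares were near those of all tested genes, 13.3% higher and 14.2% lower. Socs3, an inhibitor of JAK kinases, was at 13.1, 8.15 and 21.4 CPM against 71.2, 46.3 and 63.5 CPM (log2 fold change 2.09 ± 0.34, edgeR adjusted p = 0.00509). Ptpn2, a phosphatase of JAK and STAT proteins, was at 16.7, 21.3 and 17.9 CPM against 35.8, 47.3 and 48.1 CPM (1.23 ± 0.18, edgeR adjusted p = 0.00338). Irf2, which competes with IRF1 for its sites, fell by 0.48 ± 0.13 on the log2 scale (edgeR adjusted p = 0.0342) from 42.1, 36.6 and 39.3 CPM to 29.1, 26.3 and 29.5 CPM. The direction of Irf2 turned with library totals (0.66, edgeR adjusted p = 0.0942), where the median gene was at 1.16. Its call was lost with the hormone and granule scaling (-0.19), with TMM computed without the 20 most abundant genes (-0.38), with no filter (-0.48), against a fold of 1.2, and without low 1 (-0.42), low 2 (-0.51), low 3 (-0.46), high 2 (-0.42) or high 3 (-0.49).

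Genes that answer mainly to interferon gamma, the immunity-related GTPases among them, rose in 4 of 14 tested cases and 1 fell. Their median was 0.36, and of all tested genes 13.3% rose and 14.2% fell. Irgm1 was at 10.8, 9.31 and 16.8 CPM against 36.8, 31.3 and 45.5 CPM (log2 fold change 1.63 ± 0.26, edgeR adjusted p = 0.00480). Irgm2 rose by 1.54 ± 0.23 (edgeR adjusted p = 0.00386), Igtp by 1.26 ± 0.25 (0.0115) and Gbp6, at most 2.55 CPM, by 2.58 ± 0.56 (0.0150). Igtp missed the threshold without low 2 (1.23, adjusted p = 0.0548), and Gbp6 without low 2 (2.37), low 3 (2.60) or high 3 (2.47). Ido1, the tryptophan-degrading enzyme gene that is a classical target of interferon gamma, was at 7.36, 1.99 and 1.57 CPM against 0.531, 0.200 and 0.0504 CPM. It fell by 3.74 ± 0.86 on the log2 scale (edgeR adjusted p = 0.0177), but low 1 held most of its low glucose level, and without low 1 (-2.66, adjusted p = 0.0723), high 2 (-3.56, 0.0504) or high 3 (-3.28, 0.0532) it was not called.

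A further 36 interferon-stimulated genes, chosen from outside the 42, gave 12 higher and 1 lower of 35 tested, with a median of 0.73. The shares of all tested genes were 13.3% and 14.2%. Rtp4, a chaperone of membrane receptors, was at 3.26, 2.66 and 5.82 CPM against 24.3, 30.8 and 49.2 CPM (log2 fold change 3.16 ± 0.38, edgeR adjusted p = 0.00185). Tor3a rose by 1.42 ± 0.18 (edgeR adjusted p = 0.00205), Zc3hav1, which encodes a zinc-finger protein that targets viral RNA for decay, by 1.27 ± 0.17 (0.00274), Adar, the RNA-editing enzyme gene, by 1.13 ± 0.15 (0.00278) and Parp10 by 1.10 ± 0.17 (0.00430). Ifitm1, whose family of membrane proteins blocks viral entry, fell by 2.01 ± 0.58 on the log2 scale (edgeR adjusted p = 0.0392) from a level of at most 1.57 CPM. Its call was lost with library totals (-0.80, adjusted p = 0.328) and without low 1 (-2.15), low 2 (-2.15), low 3 (-1.69), high 2 (-1.75) or high 3 (-1.76). The exonuclease gene Trex1 was listed at 0 in all 6 libraries. Exon overlap with other genes was examined for the 42 members only, so this 0 does not show that Trex1 was not expressed.

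**Figure D5:**
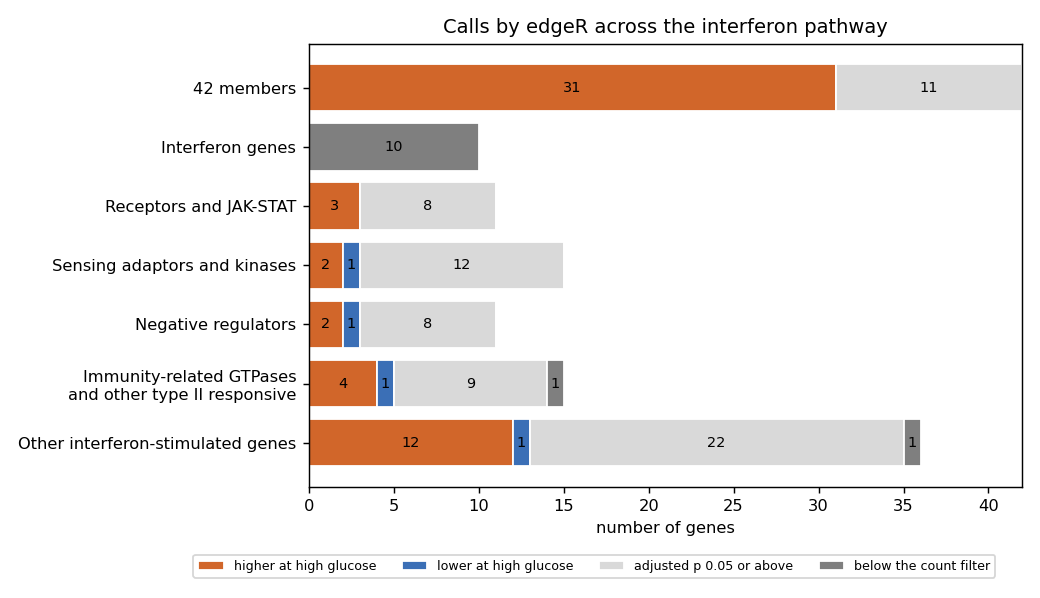
Number of genes called higher (orange), lower (blue), not called (light grey) and below the count filter (dark grey) by edgeR among the 42 members and the 6 pathway lists, with counts printed on the bars. The members have 31 higher and 0 lower, the other interferon-stimulated genes 12 higher and 1 lower, and none of the 10 interferon genes passed the filter.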

How the data were processed

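Polyadenylated RNA of 6 islet libraries, 3 at low and 3 at high glucose, was measured as counts of reads per gene, which the authors deposited unscaled. Per the submitters' processing notes, the tools were STAR 2.7.3a and HTSeq 0.6.1p1 on GRCm38. For the annotation release, strand setting and any molecular barcodes, the sources used here name nothing. Columns were assigned by name and groups by the labels. Gene names, coordinates and exon lengths were taken from GENCODE M21 on GRCm38, and 495 genes without a name held 0.0141% of all counts. Within groups, pairs of libraries differed beyond sampling noise (chi-square over its degrees of freedom, 16.2 or more).

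The whole table was fitted in edgeR 4.0.16 (R 4.3.3; glmQLFit and glmQLFTest), with TMM scaling, and filterByExpr (minimum count 10, minimum total 15) kept 13996 genes. Calls used a Benjamini-Hochberg adjusted p under 0.05, and standard errors are the absolute log2 fold change over the root of F. No label says that a group's libraries were separate animals or cultures. The p-values thus measure only the spread between these 6 samples, and that spread may be technical.

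Replicate numbers were shared between the groups. Deviations from the group means correlated at 0.40, 0.26 and 0.25 for same-numbered libraries and between -0.32 and 0.10 for others. These values depend on one another, since deviations sum to 0 within a group, and no label states a pairing. Blocked values are printed where they change a call.

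Alternatives covered scaling (library totals, DESeq2 size factors, TMM computed without the 20 most abundant genes, 20 hormone and granule genes), filtering, DESeq2 1.42.0, limma-voom 3.58.1, edgeR's fold test (1.2), the replicate block and leaving out each library. Of the stricter filter, 1 CPM in every library of a group and 50 counts in total were asked. Promoter windows are from RefSeq. All 42 members were named, by role. From each pathway list the genes past the threshold with the smallest p, at most 5, any that fell and 4 receptor genes were named, and 1 further gene is not reported here. The members and lists were chosen with earlier results of these data known. Figures were drawn with matplotlib 3.10.9.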

Additional observations from a re-analysis of the deposited data

How the results depend on the processing

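The number of members called higher (31) lay within 1.5 times of its value in 15 of 16 alternatives, and none was called lower in any (0 in edgeR, DESeq2 and limma-voom). With 1 library left out it ranged from 17 to 32, and the low value came without low 2, where 4.86% of all genes were called higher. With the replicate block the number of members was 35, against 15.7% of all tested genes. Zbp1, Isg15, Gbp2 and Gbp7 were added and no member's call was lost. Over all 672 values of single members under alternatives, 598 kept their call, 51 lost it, 23 gained it and 0 reversed. Pathway genes called higher (23 of 86 tested) became 61 with library totals, where the share of all tested genes went from 13.3% to 59.7%. With 1 library left out they ranged from 11 to 32. They were 11 without low 2, 12 without high 3 and 32 without high 1, against 4.86%, 5.78% and 19.8% of all genes. Pathway genes called lower (4) became 1 with library totals, 2 with the stricter filter and 8 with the replicate block. Over all tested genes the 1987 called lower became 629, 1897 and 2473 in these settings. With 1 library left out the pathway genes called lower ranged from 1 to 8. With library totals Ifngr1, Mavs and Irf2 reversed to 1.00, 0.16 and 0.66, all below the median gene at 1.16. With library totals the counts of markers moved for beta cells (1 higher, 3 lower), duct (8 higher) and immune cells (2 lower). In that setting 8349 of all 13996 tested genes were higher (59.7%) and 629 lower. The cause of these changes was not tested. Depth limits the scarce members: Mx1, Mx2, Oas1a, Oas2 and Ifi44 had a library with fewer than 10 counts.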

Other observations

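Some values concern neighbours and copies of the members, which were chosen after their values were seen. Ifit1bl2, in which 7.06% of the 50-base stretches of Ifit1 also occur, went the opposite way to the Ifit genes, from a mean of 18.6 to 0.319 CPM (log2 fold change -5.82 ± 0.41, edgeR adjusted p = 0.00057). Oas1g, which shares sequence with Oas1a, had mean levels of 0.808 and 1.55 CPM and did not pass (1.02 ± 0.58, edgeR adjusted p = 0.228). The ratio of Ifit3 to Ifit2 counts was 1.15, 0.455 and 0.607 in low 1 to 3 and 1.78, 2.44 and 3.86 in high 1 to 3, without overlap. The ratio of Mx2 to Mx1 counts was 0.481, 4 and 0.375 against 1.13, 3.41 and 3.51 and overlapped, with low 2 resting on 8 and 2 counts. The ratio of Parp9 to Dtx3l counts was 0.773, 1 and 0.763 against 1.01, 0.966 and 1. With 3 libraries against 3, an exact permutation test of such a ratio cannot go below 0.10, and none was run. How often the ratios of other gene pairs separate between the groups was not measured.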
